A study of Homo sapiens with 2 samples.

Results

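The genes described here encode the subunits of the nuclear RNA polymerases I, II and III together with 8 initiation factors of polymerases I and III. They were picked out by gene name, with earlier results of these data known, and are 43 genes among 56544 named genes of the table. Of these, 6 encode subunits found only in polymerase I, 11 belong to polymerase II, 11 to polymerase III, 2 are shared by polymerases I and III, and 5 are shared by all 3 enzymes. A further 6 are factors of polymerase I and 2 are factors of polymerase III. Every one of the 43 reached 5 FPKM (fragments scaled to transcript length and library size) in at least 1 library, so the minimum of 1 FPKM used for the tested genes removed none.

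Polymerase I makes the large ribosomal RNA precursor in the nucleolus and polymerase II makes messenger RNA. Polymerase III makes transfer RNA, the shortest ribosomal RNA and other short RNAs. The enzymes share a set of small subunits and an overall build, with a pair of large subunits forming the active site. Output of polymerases I and III is known to follow growth signals, and tumour cells commonly keep it high to supply ribosomes.

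RNA was sequenced from HGC-27, an established human gastric cancer line labelled as undifferentiated. One group was given a control peptide and the other the peptide called SOS in the sample titles and SHAP in the series title, each for 48 h in PDPA micelles, a polymer carrier that both groups received. Each group has 1 library, which leaves every difference without a replicate or a test, and the values describe these 2 libraries only. The table gives no read counts, so depth is unknown. Control and SOS are taken from the column names. The log2 ratio of the authors' deposited table takes a positive sign for genes higher in the control column, and had the names been exchanged, every direction below would turn.

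Markers set limits on what the line can stand for. Of the 6 epithelial markers only CLDN7 reached 1 FPKM, while CDH1 was at 0 (control) and 0.016 (SOS) and KRT18 at 0 and 0.066. Values given in pairs below keep that order. None of the 8 gastric mucosa markers reached 1 FPKM, and MUC5AC, TFF1, TFF2, GKN1 and GKN2 were listed at 0 in both libraries. The 4 endothelial markers were at or below 0.073. The leukocyte marker PTPRC was at 0.018 and 0.041. All 6 fibroblast markers were higher in SOS, their summed FPKM being 760 and 1133 and their median ratio 0.71, and their part in the differences below was not tested. Transcripts of the mitochondrial genome made up 10.2% of summed FPKM in control and 18.0% in SOS, and their part was not tested beyond the scaling over nuclear genes given below. In bulk RNA, fewer cells with a transcript and less of it per cell cannot be told apart.

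Subunit genes of all 3 polymerases were mostly lower in the SOS library, by modest amounts. Differences are given as log2((SOS FPKM + 1)/(control FPKM + 1)), which understates the difference of scarce genes; folds are plain ratios of FPKM. Of the 35 subunit genes, 33 had a ratio below 0, a share to be read against 54.1% of the 14288 genes tested. Among genes of like level the share was nearer, at 63.3% of the 8828 genes in the members' range of mean FPKM, and at 71.8%, 81.6% and 87.7% in the bands of 20 to 50, 50 to 100 and 100 to 300 FPKM, which hold most of the members. Their median was -0.43, beside -0.05 for all genes tested. The extremes were POLR1B at -1.11 and POLR2M at 0.19. Only POLR1B and POLR3K were lower by the size rule, an absolute log2 ratio of at least 1 (2-fold on this scale), which 1.64% of all genes tested met on the lower side. Neither met it under any of the 3 scalings given next (POLR1B at -0.90, -0.77 and -0.96, POLR3K at -0.86, -0.73 and -0.92) or with a pseudocount of 5. No member was higher by that rule, which 3.74% of all genes met. With the 2 libraries scaled to the same summed FPKM the median of all genes moved from -0.05 to 0.15, and the subunits below 0 numbered 29. Scaled to the same sum over nuclear genes they numbered 24, with the median of all genes at 0.27. Scaled to a median ratio of 1 they numbered 32, with that median at 0.10. Set against the median of all genes tested, 32 of the 35 were lower as deposited, a count that scaling a whole library can hardly move.

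**Figure D1:**
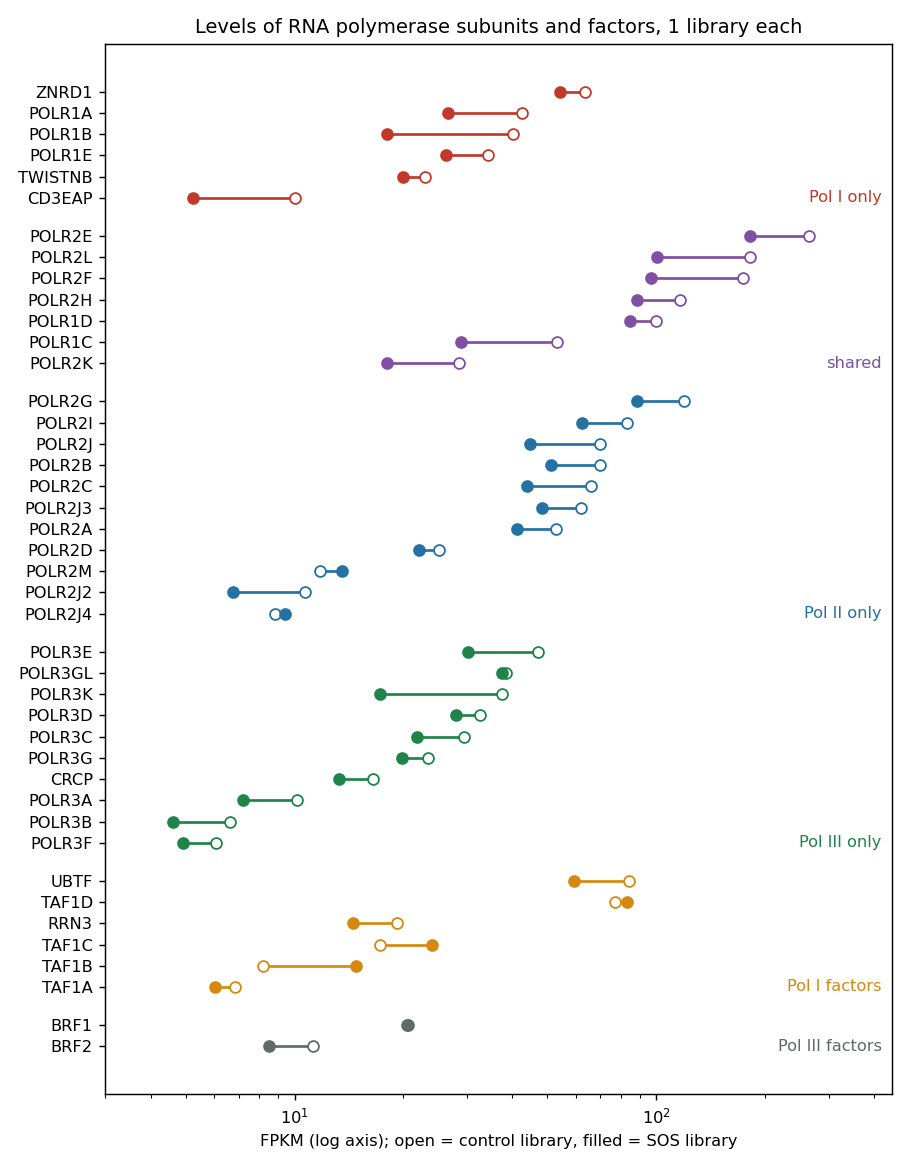
FPKM of 42 of the 43 genes on a log axis, grouped by enzyme, with the control library as an open circle and the SOS library as a filled one (1 library each, no error bars). The filled circle lies to the left for 37 genes, with the longest leftward steps at POLR1B and POLR3K, and to the right for POLR2J4, POLR2M, TAF1B, TAF1C and TAF1D.

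Short stretches upstream of the starts of 7 members are shown because these genes lie at the ends or the middle of the range and hold the promoter motifs counted below. Each is 150 bases ending just before a RefSeq start on GRCh38.p14, 5′ to 3′ on the gene's own strand. The positions are chr2:112541886-112542035 (plus strand) for POLR1B, chr6:43516939-43517088 (plus) for POLR1C, chr16:57462529-57462678 (plus) for POLR2C and chr11:93741496-93741645 (minus) for TAF1D. They are chr10:78029516-78029665 (minus) for POLR3A, chr19:45406494-45406643 (plus) for CD3EAP and chr16:53609-53758 (minus) for POLR3K. Capitals mark the ETS motif CCGGAAG or its reverse complement in the first 4, that motif and the E-box CACGTG in POLR3A, the E-box in CD3EAP and CCAAT or its reverse complement in POLR3K.
POLR1B: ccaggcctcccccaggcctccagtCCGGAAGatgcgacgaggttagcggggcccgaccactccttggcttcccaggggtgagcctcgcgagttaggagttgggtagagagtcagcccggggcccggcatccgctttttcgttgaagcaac
POLR1C: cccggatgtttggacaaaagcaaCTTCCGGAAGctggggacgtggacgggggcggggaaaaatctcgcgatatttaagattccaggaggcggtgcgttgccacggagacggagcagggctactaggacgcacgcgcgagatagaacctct
POLR2C: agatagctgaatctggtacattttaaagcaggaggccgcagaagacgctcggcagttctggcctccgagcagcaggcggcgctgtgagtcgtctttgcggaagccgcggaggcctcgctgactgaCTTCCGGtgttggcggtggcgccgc
TAF1D: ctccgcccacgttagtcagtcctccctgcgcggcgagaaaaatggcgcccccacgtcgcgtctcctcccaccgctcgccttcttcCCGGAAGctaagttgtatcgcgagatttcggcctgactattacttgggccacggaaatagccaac
POLR3A: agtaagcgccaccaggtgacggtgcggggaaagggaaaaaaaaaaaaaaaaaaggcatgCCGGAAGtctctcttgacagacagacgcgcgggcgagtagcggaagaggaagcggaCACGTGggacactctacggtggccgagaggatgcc
CD3EAP: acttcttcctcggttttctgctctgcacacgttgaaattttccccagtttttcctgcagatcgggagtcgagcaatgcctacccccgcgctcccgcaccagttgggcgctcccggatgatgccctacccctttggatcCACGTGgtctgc
POLR3K: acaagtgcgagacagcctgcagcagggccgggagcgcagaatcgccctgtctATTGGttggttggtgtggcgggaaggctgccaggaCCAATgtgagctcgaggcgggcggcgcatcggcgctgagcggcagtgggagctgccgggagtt

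RefSeq promoters, taken as 250 bases before to 50 after a start, were matched for 31 of the 43 genes. The motif CCGGAAG, bound by ETS factors, stood on either strand in 14 of these 31 genes (45.2%). It stood in 10.3% of all 35116 promoters, in 12.2% of all 27305 genes with a promoter, and in 22.8% of the 9691 such genes that were tested. Genes with it were found in every class but the polymerase III factors, from POLR1B and POLR1C, which were among the lowest, to TAF1B, TAF1C and TAF1D, which were higher in SOS. POLR1C carried overlapping copies on both strands, whose first bases lie at -127 and -124 from the start, and a further copy at -212 outside the printed stretch. The E-box CACGTG, a palindrome bound by MYC and MAX, stood in 4 of the 31 genes (12.9%), namely CD3EAP, POLR3A, POLR3C and POLR3E, beside 12.8% of the tested genes and 7.26% of all promoters. GCATGCG, the core of the NRF1 motif, was found on either strand in POLR2F, POLR2H, POLR2J2 and POLR3B (12.9% of the 31 genes), beside 8.06% of tested genes and 3.91% of all promoters. TATAAA was found on either strand only in POLR2M, 3.23% of the genes, beside 7.79% of tested genes and 11.5% of promoters. CCAAT, searched on both strands, stood in 11 genes (35.5%), POLR3K among them, beside 43.8% of tested genes and 34.6% of promoters. AAGATGG, from the YY1 motif, was found on either strand in POLR1C alone, 3.23% of the genes, beside 9.82% of tested genes and 5.84% of promoters. These matches describe letters in a window and say nothing about binding.

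Among the subunits found only in polymerase I the difference was uneven. The 6 genes were all below 0, with a median of -0.51. POLR1B, the second largest subunit and one wall of the active site, was at 40.3 and 18.1, a 2.23-fold lower value in SOS (chromosome 2, 112541915 to 112577150, GRCh38). Its partner POLR1A, the largest catalytic subunit, stood at 42.6 and 26.6, 1.60-fold lower. The pair was thus near equal in control, with POLR1A over POLR1B at 1.06, and apart in SOS, at 1.47. CD3EAP, also called POLR1G, one of a pair of subunits that resembles the polymerase II factor TFIIF, was the scarcest of the 6 at 10.0 and 5.25, 1.91-fold lower (chromosome 19, 45406209 to 45410766). POLR1E, the other of that pair, was at 34.2 and 26.3, a ratio of -0.37. The remaining genes differed least. TWISTNB, also called POLR1F, a stalk subunit that meets the initiation factor RRN3, was at 23.0 and 19.9. ZNRD1, also called POLR1H, a zinc-ribbon subunit that helps cleave RNA, was at 63.6 and 54.0. Scaled to the same sum, TWISTNB moved to 0.02 and ZNRD1 to -0.0084, while POLR1B stayed at -0.90, CD3EAP at -0.62 and POLR1A at -0.44. CD3EAP shares 1593 exon bases with ERCC1 on the other strand, itself at 48.3 and 28.2, and since strand is not given their reads cannot be told apart there.

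Subunits shared between the enzymes had the lowest median of any class, -0.64, and all 7 were below 0. POLR2L, a small zinc-binding subunit of all 3 polymerases that helps hold them together, was at 181 and 100.2, 1.81-fold lower. POLR2F, a small subunit common to all 3 that also stabilises the enzyme, was at 174 and 96.5, 1.80-fold lower. The pair was thus alike in level and in difference. POLR2E, the most abundant of all members, was at 264 and 182. POLR2K, the scarcest subunit common to all enzymes, was at 28.5 and 18.0 (1.59-fold lower), and POLR2H was at 117 and 88.3. Levels thus spanned a wide range while all 5 common subunits lay on the same side. POLR1C and POLR1D form the assembly platform of polymerases I and III, where polymerase II uses POLR2C and POLR2J. That pair did not differ alike. POLR1C was at 53.2 and 28.9, 1.84-fold lower (chromosome 6, 43509702 to 43562419), and POLR1D at 99.8 and 84.5, 1.18-fold lower. Scaled to the same sum POLR1C was at -0.64 and POLR1D at -0.014, and over nuclear genes POLR1D was at 0.12. POLR1C overlaps XPO5 (42.4 and 26.0) by 348 exon bases and YIPF3 (62.8 and 66.2) by 129, both on the other strand. POLR2L shares 257 exon bases with CD151 (141 and 97.3), also on the other strand.

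Polymerase II subunits lay in a narrower band than those found only in polymerases I or III. Of its 11 genes, 9 were below 0 and the median was -0.41; with the copies of POLR2J left out 7 of 8 were below 0 and the median was -0.42. POLR2A, the largest subunit with the repeated tail that is phosphorylated during transcription, was at 52.9 and 41.1. POLR2B, the second largest, was at 69.9 and 51.1. The proportion of the pair differed little between libraries, POLR2A over POLR2B being 0.757 in control and 0.804 in SOS. POLR2C, which pairs with POLR2J, was at 66.2 and 43.8, and POLR2J at 69.9 and 44.8, so the platform pair was of like level and differed alike (1.51-fold and 1.56-fold lower). POLR2G and POLR2D form the stalk. POLR2G was at 119.7 and 88.5. POLR2D was at 25.0 and 22.1, and it was above 0 (0.04) with both libraries given the same summed FPKM. It shares 349 exon bases with the processed pseudogene AC006011.1 on the same strand, at 24.2 and 26.6, whose part was not tested. POLR2I, a zinc-binding subunit that aids accuracy, was at 83.0 and 62.2. It shares 417 exon bases with TBCB on the other strand, at 241 and 159, whose part in these values was not tested. POLR2M is known as a protein that binds the assembled enzyme and holds back initiation. It was at 11.7 and 13.5, and it was above 0, as was the sum of the entries of POLR2J4.

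The copies of POLR2J on chromosome 7 are nearly alike in sequence, so the split between them is uncertain. POLR2J3 was at 62.1 and 48.3, and POLR2J2 at 10.7 and 6.77. POLR2J4, a non-coding copy, was at 8.83 and 9.41. Over the 4 genes the sum was 152 in control and 109 in SOS, and POLR2J made up 46.1% and 41.0% of it. POLR2J2 and POLR2J4 each stood on 2 entries, which went opposite ways. For POLR2J2 one entry was at 9.82 and 4.69 and the other at 0.906 and 2.08. For POLR2J4 the larger entry was at 6.49 and 5.44, a ratio of -0.22, and the other at 2.335 and 3.965. The sum of POLR2J4 was thus higher in SOS while its larger entry was lower, and in the authors' deposited table its larger entry has a ratio of 0.97 with control higher.

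Polymerase III subunits were the scarcest of the 3 enzymes and ranged widely in their difference. All 11 genes found only in this enzyme were below 0, with a median of -0.42 and a range of -1.07 to -0.04. POLR3K, a small subunit needed for RNA cleavage, termination and reuse of the enzyme, was at 37.4 and 17.2, 2.17-fold lower (chromosome 16, 46407 to 53628, GRCh38). CRCP, a subunit of the stalk, was at 16.4 and 13.3. Both large subunits were scarce. POLR3A was at 10.1 and 7.21 and POLR3B at 6.65 and 4.62, so their proportion held at 1.52 in control and 1.56 in SOS. POLR3D and POLR3E form a pair related to TFIIF. POLR3E was at 47.2 and 30.2, 1.56-fold lower, and POLR3D at 32.6 and 28.0, 1.16-fold lower.

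The initiation subcomplex of polymerase III, made of POLR3C, POLR3F and either POLR3G or POLR3GL, had ratios from -0.42 to -0.04. POLR3C was at 29.5 and 21.8 and POLR3F at 6.08 and 4.92. POLR3G, the form typical of stem cells and many tumour cells, was at 23.3 and 19.9. POLR3GL, the form found in most tissues, was at 38.4 and 37.4. POLR3G made up 37.8% of the pair in control and 34.7% in SOS. Scaled to the same sum over nuclear genes, POLR3C kept a ratio below 0 (-0.075), while POLR3F, POLR3G, POLR3GL, POLR3D and CRCP were above 0, at 0.043, 0.12, 0.31, 0.13 and 0.048.

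**Figure D2:**
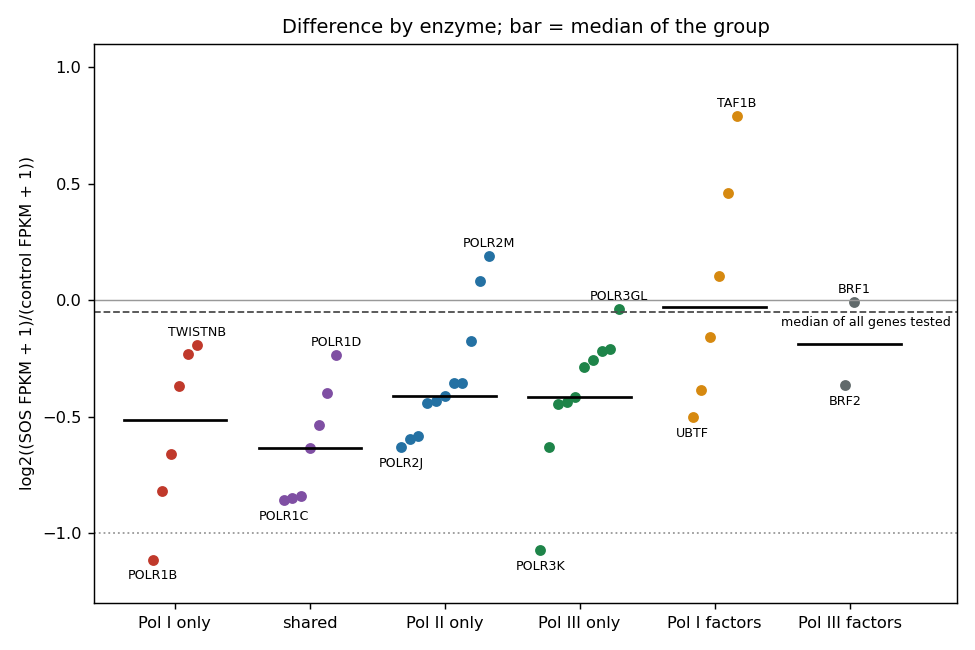
Log2 ratio of 42 genes by class (points), with the class median as a bar, the median of all 14288 genes tested as a dashed line and the size rule of -1 as a dotted line. Shared subunits have the lowest median (-0.64), POLR1B and POLR3K pass the dotted line, and the polymerase I factors spread from -0.50 to 0.79.

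The polymerase I factors did not go one way. Of 6, 3 were below 0 and 3 above, with a median of -0.03 as deposited that was above 0 under each of the 3 scalings. UBTF, which bends and marks the ribosomal genes, was the most abundant at 84.2 and 59.1, 1.42-fold lower. RRN3, which makes the enzyme competent to start, was at 19.3 and 14.5. The SL1 complex, which holds the promoter, has 4 subunits here besides TBP. TAF1A was at 6.85 and 6.03, TAF1D at 77.0 and 82.8 and TAF1C at 17.2 and 24.0. TAF1B was at 8.16 and 14.8, the highest ratio of any member at 0.79 (chromosome 2, 9843354 to 9934416). Each of the 3 scalings raises every ratio, so none could turn TAF1B, TAF1C or TAF1D. TAF1B passed the size rule, at 1.12, with nuclear genes scaled to the same sum. TAF1D hosts small nucleolar RNAs in its exons and introns as annotated, so reads from them could enter its value. Of the polymerase III factors, BRF1, used at transfer RNA genes, was at 20.6 and 20.5. BRF2, used at genes such as that of the U6 RNA, was at 11.2 and 8.51. It shares 1629 exon bases with ADGRA2 on the other strand, at 46.4 and 57.7, whose part was not tested.

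The authors' deposited table holds a second ratio, which differs from that of FPKM for some members. Its sign followed the library with the higher FPKM in 18881 of 18897 genes with 1 entry and a ratio other than 0 (99.9%), but its size did not pass through 0 where the FPKM were equal. Among genes at 20 FPKM or more in both libraries, the 346 with control higher by up to 0.1 (log2) had a median authors' ratio of 0.22, and the 243 with SOS higher by up to 0.1 had -0.14. Genes with a deposited p-value above 0.9 had a median ratio of 0.31 (127 genes at 5 FPKM or more), so the p-values appear centred there and not at 0. The sign of a small ratio thus repeats which FPKM was higher. In the authors' deposited table TAF1B has a ratio of -0.031, TAF1D -0.0098 and POLR2M -0.12, with control over SOS as positive. TAF1B, the member with the highest ratio by FPKM, was thus close to 0 there, while TAF1C lay farthest on the side of SOS.

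By the same ratio, 6 members carried the authors' mark of significance, all with control higher: CD3EAP, POLR1B, POLR2F, POLR2J2, POLR2L and POLR3K. That mark with control higher stood on 2.3% of all genes tested, and with SOS higher on 3.63%. In the authors' deposited table CD3EAP had the largest ratio of the members, 1.39, followed by POLR3K at 1.26 and the larger entry of POLR2J2 at 1.24, POLR1B having 1.05. Turned to SOS over control and with the value of 0.31 taken off, CD3EAP came to -1.07, POLR3K to -0.94, POLR2L to -0.81, POLR2F to -0.77 and POLR1B to -0.74. TWISTNB came to -0.0011, TAF1B to 0.35 and TAF1C to 0.58, the highest of the members. POLR1D, POLR3G and POLR3GL came to 0.13, 0.21 and 0.13. POLR2D, at -0.18 by the plain log2 ratio of FPKM, was at -0.50 in the authors' deposited table before that step.

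**Figure D3:**
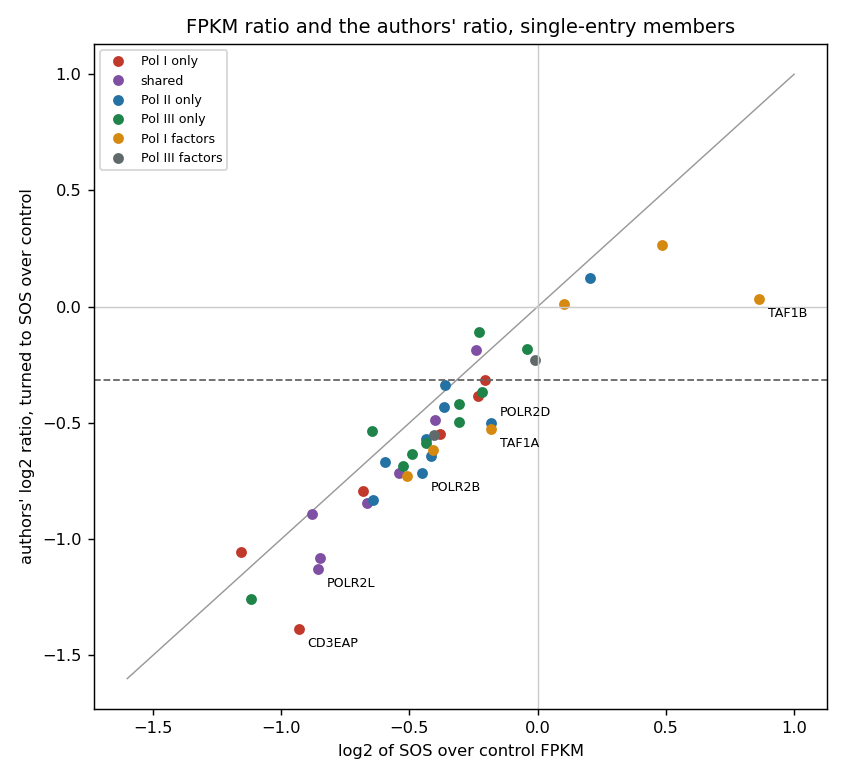
Plain log2 ratio of FPKM (horizontal) against the log2 ratio of the authors' deposited table turned to SOS over control (vertical) for 40 members with 1 entry, coloured by class; the grey diagonal marks equality and the dashed line the value at which the authors' p-values are centred. Most points lie below the diagonal, and labelled genes are those at least 0.25 apart, TAF1B being the farthest.

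Level has to be kept in view, because more abundant genes had lower ratios throughout. Spearman's rho between mean FPKM and the ratio was -0.39 across the 14288 genes tested and -0.28 across the 43 members (genes share libraries and are not replicates). In the band from 20 to 50 FPKM, 17 members had a median of -0.37 beside -0.21 for 2512 genes. From 50 to 100 FPKM, 9 members had -0.41 beside -0.33 for 1048 genes, and from 100 to 300 FPKM, 5 members had -0.54 beside -0.42 for 618 genes. From 5 to 10 FPKM the gap was wider, 8 members at -0.40 beside 0.04, and from 10 to 20 FPKM 4 members had -0.048 beside -0.06. Relative to the median of its own band, 26 of 35 subunits were lower. This held for 4 of 6 genes of polymerase I, 5 of 7 shared genes, 8 of 11 of polymerase II and 9 of 11 of polymerase III, the median gaps being -0.30, -0.42, -0.08 and -0.30. Genes found only in polymerase II therefore lay close to other genes of their level, which leaves out the subunits it shares. The complete polymerase II adds those and omits POLR2M and the copies of POLR2J. All 12 of its genes were below 0, with a median ratio of -0.49. For the complete polymerases I and III the medians were -0.64 (13 genes) and -0.44 (18 genes). The 18 genes count both POLR3G and POLR3GL, which are alternatives in the enzyme. The medians of complete enzymes were not set against level. The difference between the classes was not tested.

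**Figure D4:**
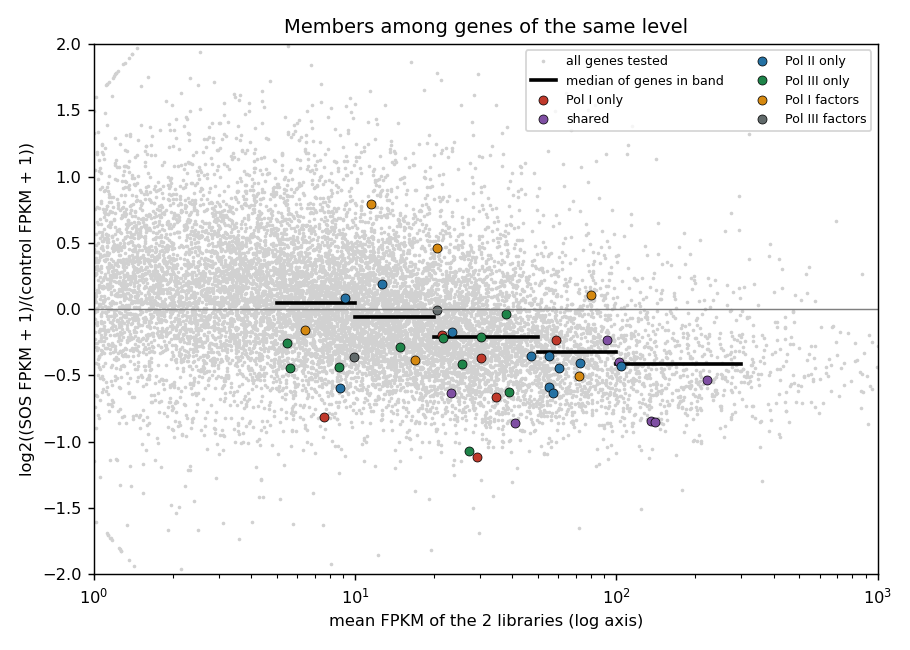
Log2 ratio against mean FPKM of the 2 libraries (log axis) for all genes tested (grey) and 42 members (coloured by class), with black bars for the median of all genes in each band of level; 826 genes beyond the axes are not drawn. Most subunits of each class lie under the bars, and the median gap is smallest for genes found only in polymerase II (-0.08).

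Lists of genes that build or serve the polymerases differed in their medians, but also in level, and they were not set against it. The median control FPKM was 34.6 for the assembly list and 32.2 for cofactors of polymerase I. For the lists of polymerase II and III factors it ran from 18.1 (Mediator) to 25.2 (elongation). Of 15 genes for polymerase assembly, 13 were below 0, with a median of -0.43. Below 0 were 54.1% of all genes tested, and 71.8% of those with a mean of 20 to 50 FPKM. PFDN2, a prefoldin subunit, was at 318 and 187, and the ATPase RUVBL1 at 97.2 and 59.2, whereas the scaffold RPAP3 was at 18.3 and 18.4 and WDR92 at 8.60 and 9.13. For cofactors of polymerase I, 10 of 11 were below 0 with a median of -0.58. NOLC1, a nucleolar phosphoprotein, was at 259 and 149 and the helicase DDX21 at 72.9 and 46.2. BAZ2A, which silences ribosomal genes together with SMARCA5, was at 31.3 and 36.3, and SMARCA5 at 11.7 and 11.2. Both lists kept medians below 0 with the libraries scaled to the same sum, at -0.23 and -0.37.

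Lists of factors of polymerases II and III had medians nearer to that of all genes, again not set against level. The 14 other polymerase III factors had a median of -0.18, which became 0.04 when scaled to the same sum. GTF3C6, a subunit of TFIIIC, was at 61.4 and 37.6, and SNAPC5, of the complex that starts small nuclear RNA genes, at 10.4 and 6.83. BDP1, the TFIIIB subunit that joins BRF1 or BRF2, was at 3.53 and 6.04, and SNAPC3 at 21.7 and 25.9. General factors of polymerase II had a median of -0.23 over 18 genes. GTF2H5 was at 15.2 and 8.88 and GTF2A2 at 69.1 and 44.2, with ERCC2 at 19.5 and 23.6 and GTF2H2 at 14.2 and 17.1. The 15 TAF subunits of TFIID had a median of -0.22, with TAF12 at 20.2 and 14.1, TAF7 at 43.2 and 35.5, TAF1 at 13.6 and 16.7 and TAF4 at 7.60 and 8.71. For 30 Mediator genes the median was -0.22, with MED19 at 24.4 and 15.1, MED6 at 29.7 and 19.7, MED12 at 8.24 and 13.5 and MED28 at 17.8 and 24.7. Elongation factors, 22 genes, had a median of -0.29. Both subunits of the histone chaperone FACT were lower, SSRP1 at 257 and 173 and SUPT16H at 98.3 and 69.2. LARP7, which binds the 7SK RNA, was at 9.05 and 16.1, and LEO1 at 21.7 and 25.2. As deposited, 16 of 18 general, 19 of 22 elongation, 23 of 30 Mediator and 10 of 15 TAF genes were below 0. The same held for 10 of the 14 other polymerase III factors. These shares, too, stand beside 54.1% of all genes tested. Scaled to the same sum, the general, TAF, Mediator and elongation lists had medians of -0.011, -0.0084, -0.0039 and -0.079.

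Products of polymerase III were low in SOS where they were seen. Of 13 named transcripts 5 reached 1 FPKM, all below 0 also when scaled to the same sum, and 4 of them passed the size rule. Of all genes tested, 54.1% were below 0 and 1.64% passed that rule on the lower side. BCYRN1, a cytoplasmic RNA of Alu origin, was at 552 and 286, RN7SL1 at 257 and 98.9, RN7SL2 at 109.7 and 34.2, RN7SK, which holds back the elongation kinase P-TEFb, at 24.9 and 8.97, and RMRP at 13.4 and 2.79. Most such RNAs lack a tail and are short or repeated, and how RNA was selected for the libraries is not given in the sources used here, so these values are uncertain. The vault RNAs and Y RNAs in the table were listed at 0 in both libraries.

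**Figure D5:**
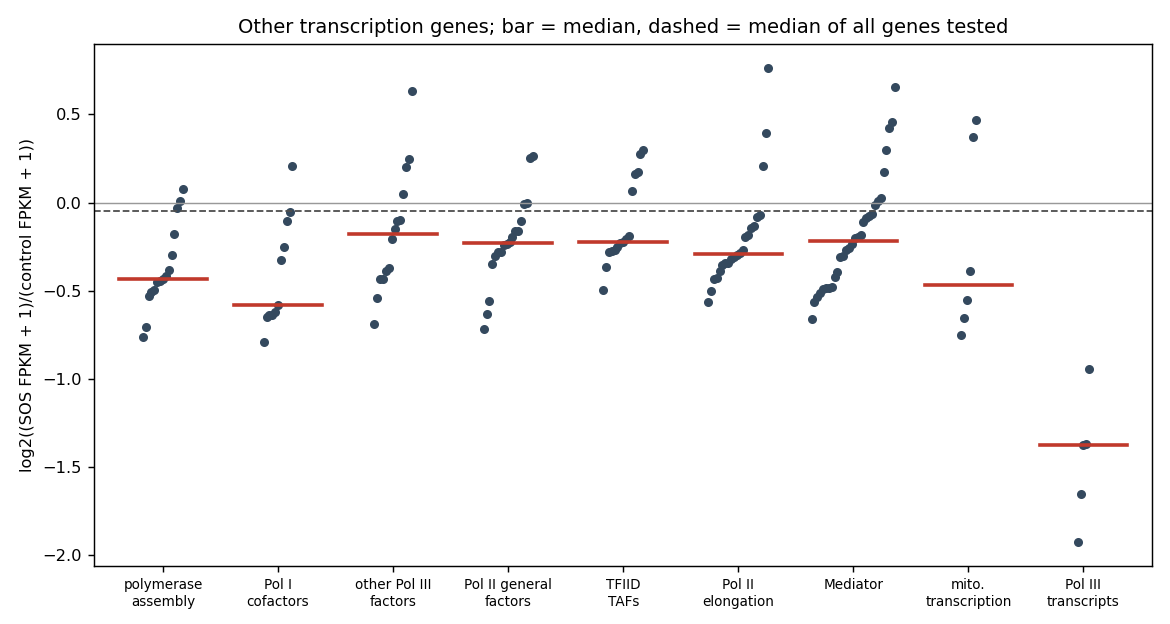
Log2 ratio of the tested genes of 9 other lists of transcription genes (points), with the list median as a red bar and the median of all genes tested as a dashed line. Polymerase III transcripts lie lowest, and the medians of the polymerase I cofactor and assembly lists lie under those of the general factor, TAF and Mediator lists.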

How the data were processed

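Members and gene lists were chosen with earlier results of these data known. Per the file headers, the authors deposited FPKM for each library with a log2 ratio, a p-value and an adjusted p-value; no source used here names the test behind it. The submitters' processing notes name the build GRCh38.p10 and the tools RSEM, Cufflinks and HISAT2, with neither version nor role. Of 58645 entries, 412 without a name and 27 with date-like names were left out, and FPKM were summed over entries of 1 name; the authors' values come from the entry with the highest FPKM.

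Ratios are log2((SOS FPKM + 1)/(control FPKM + 1)), computed where either library reached 1 FPKM. With 1 library per group no test was made, and precision cannot be given because the table holds no counts. Coordinates and overlaps come from GENCODE release 29 on GRCh38, which may differ from the authors' annotation, and promoters from RefSeq on GRCh38.p14. For CD3EAP, TWISTNB and ZNRD1 they were matched by their later symbols. The NRF1 and YY1 motifs were shortened after longer forms, which fewer promoters hold, had been counted. Python 3.11.15, pandas 2.3.3 and scipy 1.17.1 were used, and the ratio was tested on simulated data. Members are named except 1, which counts in all numbers of members and medians but is not reported here; of other lists, the 2 highest and 2 lowest genes with at least 5 FPKM are named, and genes beyond that were chosen after their values were seen. Alternatives covered the pseudocount, the minimum FPKM, 3 scalings, the authors' ratio, the entry used and the copies of POLR2J. Another 2 alternatives, the centred authors' ratio and the omission of overlapping members, were added after seeing the data.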

Additional observations from a re-analysis of the deposited data

How the results depend on the processing

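No paired analysis was possible because each group has 1 library. The median ratios of the members and of the polymerase I, II and III and shared classes stayed below 0 under every alternative run. In that order they were -0.17, -0.30, -0.19, -0.20 and -0.42 when the summed FPKM were made equal, and -0.048, -0.17, -0.059, -0.075 and -0.30 scaled over nuclear genes. Scaled to a median ratio of 1, the members came to -0.24, polymerase II to -0.25 and polymerase III to -0.26. By the authors' ratio, turned, polymerase II came to -0.64; centred as well, the members came to -0.24 and polymerase III to -0.22. With a pseudocount of 5 polymerase III came to -0.28. The polymerase I factors turned positive with the same sum (0.18), over nuclear genes (0.30), with a median ratio of 1 (0.12) and by the centred authors' ratio (0.058), but lay lower than the main -0.03 by the authors' ratio, turned (-0.26), and without overlapping members (-0.16). The median of all genes turned positive with no minimum (0.011), with the same sum (0.15), over nuclear genes (0.27), with a median ratio of 1 (0.10) and by the centred ratio (0.18).

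Members lower by the size rule numbered 2, but 0 with a pseudocount of 5 or under any of the 3 scalings, 6 by the authors' ratio, 1 by the centred ratio and 1 without overlapping members. TAF1B was the 1 member higher when scaled over nuclear genes. All genes higher and lower numbered 535 and 235. They were 1094 and 442 with a pseudocount of 0.1, 99 and 64 with 5, 273 and 126 with a minimum of 5 FPKM, 845 and 153 with the same sum and 1123 and 135 over nuclear genes. By the authors' ratio 549 were lower, and 1313 were higher by the centred ratio. Of the members, 17 share exon bases with a gene on the other strand at 5 FPKM or more. Without them 20 of 21 subunits were below 0, beside 54.1% of all genes tested, where overlapping genes were kept. For the other shifts the cause was not tested. With no counts, the precision that depth gives is unknown.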

Other observations

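Mitochondria use a separate RNA polymerase. Its gene POLRMT was at 53.8 (control) and 33.8 (SOS), and TFAM, which packs and starts transcription of the mitochondrial genome, at 28.0 and 16.2. TFB1M, a methyltransferase of the mitochondrial ribosome, was at 5.84 and 8.45, and MTERF1, a termination factor, at 5.64 and 7.60. Transcripts of the mitochondrial genome made up 10.2% of the summed FPKM in control and 18.0% in SOS, so the enzyme's gene and its products differed in opposite directions in these libraries.

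Several members start next to a gene on the other strand. Of 42 protein-coding members, 12 (28.6%) had the start of another protein-coding gene within 1000 bases on the opposite strand, beside 18.2% of 11803 tested protein-coding genes. Of the 10 such neighbours that were tested, 6 were below 0, with a median of -0.14. This is near the 54.1% of all genes tested that were below 0. SNRNP25, a subunit of the minor spliceosome that starts beside POLR3K, was at 47.9 and 25.5, against 37.4 and 17.2 for POLR3K. Annotated exons of that pair share 153 bases, whose part in these values was not tested. PTCD3, beside POLR1A, was at 130.3 and 94.4. PPP1R13L, beside CD3EAP, was at 2.95 and 4.73, and TSPAN4, beside POLR2L, at 50.6 and 43.7.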
